A study of Mus musculus with 14 samples.

Results

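Neurons and their axons were followed in mouse plexiform neurofibromas (PNs) through 10 genes: the intermediate filament genes *Nefl*, *Nefm*, *Nefh*, *Prph*, and *Ina*, and the pan-neuronal genes *Tubb3*, *Stmn2*, *Map2*, *Uchl1*, and *Snap25*. The genes were chosen by symbol, and each of the 10 was found among the 24062 genes of the bulk RNA-seq count table. All 10 also passed the filter on low counts in each of the 4 comparisons made. PNs did not differ detectably from controls in any of the 10 genes. The libraries themselves differed widely. In 1 fast-growing PN, 8 of the genes were below 10% of the lowest of the other libraries, against 2.64% of all genes tested. *Map2* was not among these 8. It was at 72.1% of the median of the other PNs there, so in that library it did not follow the other neuronal genes.

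Neurofilaments are the intermediate filaments of large axons and set axon caliber. They are heteropolymers built on the light chain NEFL together with the medium and heavy chains NEFM and NEFH, and in peripheral neurons peripherin (PRPH) joins them, as alpha-internexin (INA) does mainly in central neurons. TUBB3 is the neuronal beta-tubulin, STMN2 binds tubulin in growing and regenerating axons, MAP2 binds microtubules in dendrites and cell bodies, UCHL1 is an abundant neuronal ubiquitin hydrolase, and SNAP25 is the plasma membrane SNARE of synaptic vesicle fusion. In a dorsal root ganglion (DRG), the cell bodies of sensory neurons lie wrapped by satellite glia, their axons run out through the roots and nerve with Schwann cells (SCs), and most mRNA of these genes is in the cell bodies.

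The study compared whole frozen tissue of 3 control DRGs with nerve roots (*Nf1*fl/fl, without Cre) with 11 PNs of DhhCre;Nf1fl/fl mice. Both groups carried floxed *Nf1* and received no drug. The labels give a mixed C57BL/6, I-129, and FVBN background, whereas the study's methods call it largely C57BL/6. Mice were 9 months old by the study's methods, although the legend of a figure gives a lower age. Growth was scored by MRI volume from 7 to 9 months, and 5 PNs that changed by less than 5 mm3 were called slow growing, whereas 6 PNs that grew by more than 35 mm3 were called fast growing. *Dhh-Cre* is active in the SC lineage, so the neurons of these mice were not the target of recombination, and PNs form around DRGs. The libraries are named here by group and number. Each PN library carries its own number in the labels, which is taken here, without a check, as the number of a mouse. Nothing in the labels says that the 3 controls came from separate animals. The p-values measure the spread between these libraries.

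*Nf1* itself was at 229, 153, and 131 CPM (counts scaled to the library size, with TMM factors) in the 3 controls and at 224 to 293 CPM in the 11 PNs. The edgeR quasi-likelihood test gave a log2 fold change of 0.54 ± 0.16 (SE; adjusted p = 0.0215) for PNs versus controls. The whole-gene count includes RNA of cells without Cre and exons outside any deleted part, so it does not check the genotype labels.

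The depth was 9596773 to 17594164 counts per library, and 3 counts, the limit that a count of 0 allows, correspond to 0.166 to 0.317 CPM (counting error only). Sensory neuron markers were present in all controls and in 10 PNs: *Isl1* and *Pou4f1*, transcription factors of sensory neurons, were at 7.60 to 23.0 and 12.6 to 33.6 CPM in controls and at 11.1 to 70.6 and 17.0 to 152 CPM in those PNs. Markers of other neurons and of central glia were also measured. The summed level of 8 autonomic and motor neuron genes was 0.302 to 5.93 CPM over the 14 libraries, with *Chat* and *Mnx1* at or below 0.604 CPM. For 6 genes of central glia it was 5.82 to 54.7 CPM, of which *Slc1a2* (11.7 CPM on average in controls, 16.4 CPM in PNs) and *Aqp4* (13.3 and 7.67 CPM) made up most, while *Olig2* and *Mog* stayed at or below 0.422 CPM. Control tissue also held muscle and fat, with summed levels of 15 skeletal muscle markers of 4060 to 16300 CPM in controls, 23.4 to 3780 CPM in slow-growing PNs, and 86.7 to 2530 CPM in fast-growing PNs. For 12 fat markers these ranges were 4150 to 5970, 41.3 to 3340, and 43.5 to 303 CPM.

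The fast-growing PN numbered 4 (fast 4) stood apart from the other 13 libraries in these genes and is described before the comparisons. *Nefl* had 42 counts there, or 3.18 CPM, against 394 to 2973 CPM in the other 13 libraries. *Snap25* had 89 counts (6.73 CPM against 343 to 3784 CPM), and *Ina* had 1 count. A total of 8 of the 10 genes were below 10% of the lowest of the other libraries, as were 430 of the 16283 genes tested (2.64%). Under the same rule, each other library had 4 to 78 such genes and 0 of the 10. The depth of fast 4, 12159630 counts, was inside the range of the others. In bulk tissue, fewer neuronal cell bodies and less RNA per neuron cannot be told apart.

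The genes were not at one common share in fast 4. Relative to the median of the other 10 PNs, the intermediate filament genes with more than 1 count were at 0.254% (*Nefl*), 0.309% (*Nefh*), 0.367% (*Nefm*), and 0.517% (*Prph*), and *Snap25* was at 0.447%. *Tubb3* was at 2.19% (95% exact Poisson interval, 1.78% to 2.67%), *Stmn2* at 3.64% (3.18% to 4.15%), and *Uchl1* at 5.41% (4.49% to 6.46%). The interval of *Uchl1* lies above that of *Nefl* (0.183% to 0.343%), so these 2 shares lie apart by more than counting error. *Map2* was at 72.1% (65.8% to 78.7%), from 491 counts, and its 37.1 CPM lay inside the range of the other fast-growing PNs (29.5 to 67.4 CPM). The choice of this library and of the 10% limit was made after the values had been seen, so these shares are a description.

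**Figure D1:**
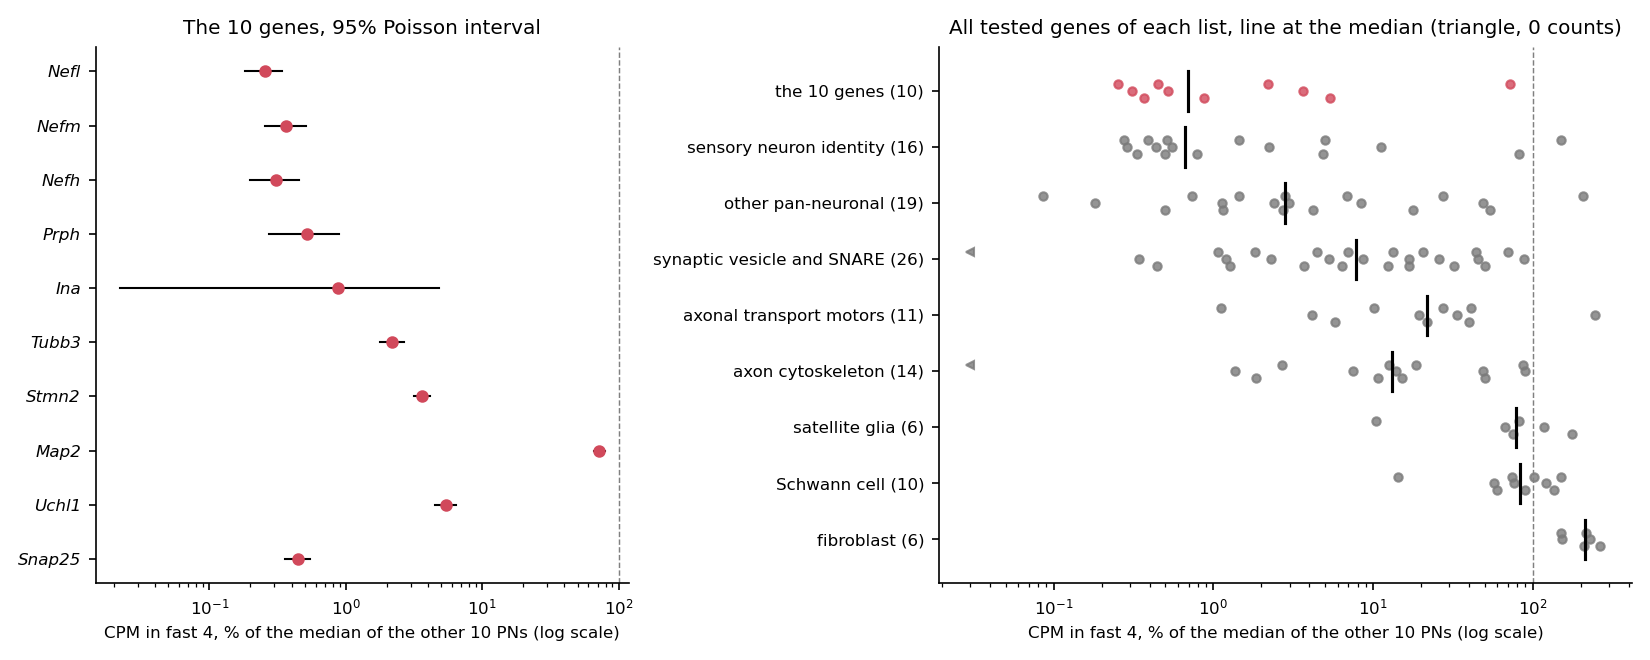
CPM in fast 4 as a percentage of the median of the other 10 PNs, on a log axis, for the 10 genes with 95% Poisson intervals of the counts in fast 4 (left) and for all tested genes of 9 groups with their medians (right). *Map2* lies at 72.1%, the other 9 genes lie below 10%, and the sensory neuron identity genes have a median of 0.667% whereas the SC genes have one of 83.0%.

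The neighbouring groups of genes showed how far this extended. Among 16 genes of sensory neuron identity, 11 were below 10% of the lowest of the other libraries in fast 4, against 2.64% of all genes tested. *Isl1* was at 1 count, *Pou4f1* at 2 counts, and *Avil*, a gene of peripheral sensory neurons, at 8 counts. Not all genes of this list were low. *Ntrk3* had 1063 counts, 82.6% of the median of the other 10 PNs, and *Runx3* had 148 counts, 150% of that median. As a percentage of the median of the other 10 PNs, the median was 0.667% for this list, 2.83% for 19 other pan-neuronal genes, and 7.84% for 26 synaptic vesicle and SNARE genes. It was 13.2% for 14 axon cytoskeleton genes and 21.9% for 11 axonal transport motor genes. Genes of these lists that many cell types express, such as *Dst* at 87.5% and *Vamp2* at 50.2%, were among the highest. Medians were 78.6% for 6 satellite glia markers, 83.0% for 10 SC markers, and 214% for 6 fibroblast markers.

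All 10 genes are protein coding in the GENCODE annotation of mm10. *Nefl* (chr14:68083863-68089095, plus strand) lies within the span of *Nefm* (chr14:68082590-68124846, minus strand), and their exons share 1108 bases, 32.8% of those of *Nefl* and 19.2% of those of *Nefm*. *Nefh* is at chr11:4938754-4948064, *Prph* at chr15:99055174-99058978, *Ina* at chr19:47014698-47025327, *Tubb3* at chr8:123411424-123422015, *Stmn2* at chr3:8509360-8561606, *Map2* at chr1:66175273-66442583, *Uchl1* at chr5:66676091-66687234, and *Snap25* at chr2:136713453-136782428. *Ina* shares 14.1% of its exon bases with *Nt5c2*, and *Uchl1* shares 18.1% with the antisense gene *Uchl1os*. Whether the counting used strand is not given in the sources used here, so reads from these shared stretches may not be told apart.

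The promoters of the genes were also described, and this search was not a test of why the genes moved together across libraries. RefSeq promoter windows of GRCm38.p6, from 250 bases before to 50 bases after the start site, were matched for 5 of the 10 genes, and not for *Nefl*, *Nefm*, *Nefh*, *Stmn2*, and *Snap25*. They were searched on both strands for TATAAA, the TATA box, and for TTCAGCACC and GGACAGCGC, the outer stretches of RE1, the site of the repressor REST, which keeps neuronal genes off in other cells. Of 32851 windows of all genes, 13.6% hold the first, 0.371% the second, and 0.405% the third. Only *Prph* held a match, a TATAAA on its own strand that begins at position -31 from the start site. Neither RE1 stretch was found in the 5 windows. Exact stretches this rare over all windows would seldom be met in 5, so their absence allows no conclusion. The windows of 3 genes are shown, *Prph* for this match (in capitals), *Map2* as the gene that stayed in fast 4, and *Uchl1* as the one with the lowest GC content (50.7%, against 64.7% in *Prph* and 77.7% in *Map2*).
*Prph*, chr15:99054924-99055223, plus strand: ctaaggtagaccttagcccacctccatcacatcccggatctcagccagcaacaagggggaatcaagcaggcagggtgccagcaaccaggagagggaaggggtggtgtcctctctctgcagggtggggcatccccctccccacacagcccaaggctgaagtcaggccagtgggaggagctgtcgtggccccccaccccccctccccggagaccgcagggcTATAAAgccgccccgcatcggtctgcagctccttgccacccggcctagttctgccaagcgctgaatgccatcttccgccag
*Map2*, chr1:66175079-66175378, plus strand: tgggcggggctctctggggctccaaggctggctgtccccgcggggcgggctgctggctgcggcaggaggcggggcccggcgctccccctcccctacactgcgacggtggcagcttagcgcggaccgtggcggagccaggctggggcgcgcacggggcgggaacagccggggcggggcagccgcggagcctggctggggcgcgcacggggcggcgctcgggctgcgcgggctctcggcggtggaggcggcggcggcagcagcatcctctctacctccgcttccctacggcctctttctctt
*Uchl1*, chr5:66675871-66676170, plus strand: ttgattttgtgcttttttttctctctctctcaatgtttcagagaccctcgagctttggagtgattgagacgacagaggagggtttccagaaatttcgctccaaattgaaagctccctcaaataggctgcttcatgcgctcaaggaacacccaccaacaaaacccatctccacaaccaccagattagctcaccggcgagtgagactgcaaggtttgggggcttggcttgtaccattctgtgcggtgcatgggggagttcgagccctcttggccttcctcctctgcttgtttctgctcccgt

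Levels of different genes were compared per kilobase of the longest transcript. In controls, *Nefl* had the highest mean at 258 ± 186 CPM per kilobase (SD, n = 3), and *Nefm*, *Snap25*, *Tubb3*, *Uchl1*, *Nefh*, *Prph*, and *Stmn2* followed between 160 and 90.1 CPM per kilobase. *Map2* (4.86 ± 2.57) and *Ina* (1.87 ± 1.21) were far lower. Means of neighbours among the first 8 did not differ beyond their spread, whereas the gaps from *Stmn2* to *Map2* and from *Map2* to *Ina* were larger than the SD of either gene. Within libraries, *Nefl* was above *Nefm*, *Snap25* above *Tubb3*, and *Prph* above *Stmn2* in 3 of 3 controls. In the 10 PNs other than fast 4, *Nefl* (370 ± 219 CPM per kilobase) and *Snap25* (353 ± 194) came first, and *Nefl* was the higher of the pair in 6 of 10 PNs. *Snap25* was the higher in 4 of 5 slow-growing PNs, and *Nefl* in the 5 fast-growing PNs other than fast 4. *Map2* (8.67 ± 3.84) and *Ina* (2.89 ± 1.85) again came last.

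**Figure D2:**
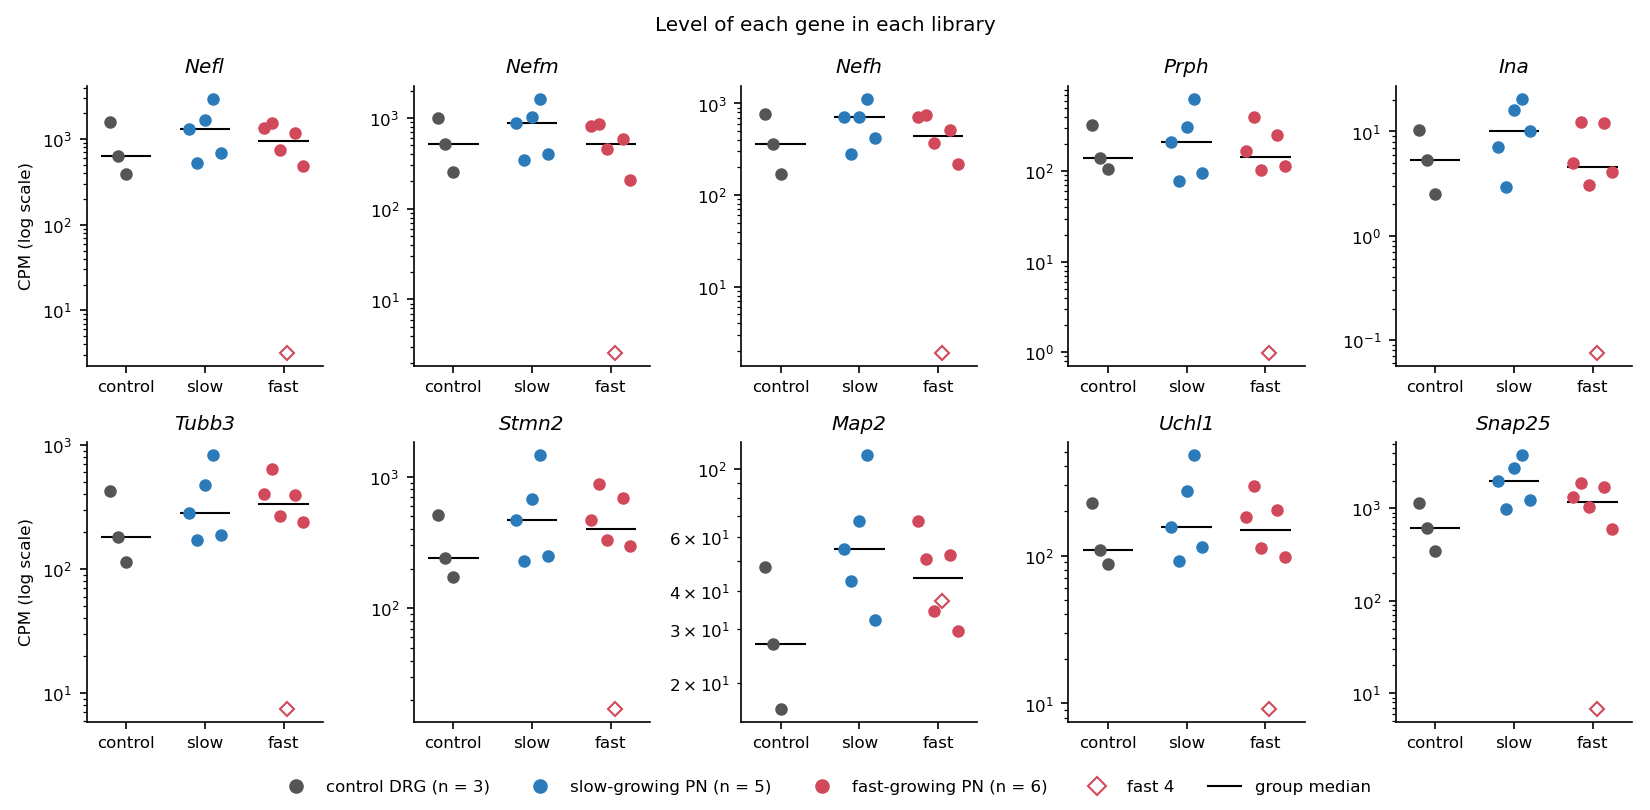
CPM of each of the 10 genes in each library, on log axes, with the group median as a line and fast 4 as an open diamond. Controls and PNs overlap in every panel, and fast 4 lies below all other libraries in each panel but that of *Map2*.

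The first comparison asked whether PNs as a group differed from control DRGs. None of the 10 genes was called by edgeR (0 of 10 at an adjusted p under 0.05), whereas 26.3% of the 16283 genes tested were called. None had an unadjusted p under 0.05, and DESeq2 and limma-voom likewise called 0 of 10. The log2 fold changes were positive for all 10 genes in edgeR and had a median of 0.43, against 0.10 over all genes tested. In limma-voom 5 of the 10 were positive and the median was -0.03, so the direction of the group rests on the method. It also rests on single libraries: the edgeR median was 1.12 without control 1, 0.13 with 7 of 10 positive without control 3, and 0.19 with 8 of 10 positive without slow 4. Without fast 4, edgeR gave a median of 0.54, called 0 of 10, and 1 gene, *Snap25*, had an unadjusted p under 0.05.

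Among the neurofilament chains, *Nefl* was at 1582, 641, and 394 CPM in the 3 controls, a 4.02-fold range. In slow-growing PNs it was at 1317, 521, 1655, 2973, and 691 CPM, and in fast-growing PNs at 1362, 1553, 745, 3.18, 1184, and 487 CPM. Slow 4 was the highest library and fast 4 the lowest, and apart from these and slow 3 every PN lay inside the range of the controls. The log2 fold change of *Nefl* for PNs versus controls was 0.38 ± 0.95 (SE; 95% interval, -1.64 to 2.40), with an edgeR adjusted p of 0.801 and an exact two-sided permutation p of 0.907 over 364 splits. Without fast 4 it was 0.49 ± 0.53 (-0.65 to 1.63).

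The medium and heavy chains followed the light chain. *Nefm* was at 994, 522, and 254 CPM in controls, at 873, 344, 1023, 1635, and 402 CPM in slow-growing PNs, and at 818, 864, 451, 582, and 209 CPM in fast-growing PNs other than fast 4 (2.57 CPM). *Nefh* was at 772, 358, and 172 CPM in controls, at 705, 282, 717, 1127, and 422 CPM in slow-growing PNs, and at 704, 742, 370, 519, and 218 CPM in fast-growing PNs other than fast 4 (1.89 CPM). The groups overlapped for both genes, with the same slow 4 on top. Their log2 fold changes for PNs versus controls were 0.15 ± 0.91 and 0.28 ± 0.89 (SE; edgeR adjusted p = 0.920 and 0.845).

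*Prph*, which small sensory neurons express most, ranged from 106 to 321 CPM in controls, from 78.2 to 635 CPM in slow-growing PNs, and from 103 to 395 CPM in fast-growing PNs other than fast 4 (0.983 CPM). It lay below every control in 4 PNs, counting fast 4, and above every control in 2 PNs. *Ina* was scarce, at 2.53 to 10.3 CPM in controls and 2.93 to 20.6 CPM in the 10 other PNs. Their log2 fold changes were 0.19 ± 0.93 and 0.48 ± 0.85 (SE; edgeR adjusted p = 0.903 and 0.706).

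Among the microtubule genes, *Map2* had the smallest spread. It was at 48.0, 26.8, and 16.5 CPM in controls, at 54.7, 43.0, 67.7, 111, and 32.1 CPM in slow-growing PNs, and at 67.4, 50.8, 34.5, 37.1, 52.2, and 29.5 CPM in fast-growing PNs. A total of 6 of 11 PNs were above every control and none was below. Its log2 fold change for PNs versus controls was 0.79 ± 0.40 (SE; 95% interval, -0.06 to 1.64), with an edgeR adjusted p of 0.157 and an exact permutation p of 0.0714. *Tubb3* was at 422, 180, and 114 CPM in controls and at 172 to 830 CPM in the 10 other PNs, and *Stmn2* was at 511, 239, and 173 CPM in controls and at 230 to 1463 CPM in those PNs. Their log2 fold changes were 0.57 ± 0.78 and 0.77 ± 0.79 (SE; edgeR adjusted p = 0.624 and 0.499), and 3 and 4 PNs were above every control.

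*Uchl1* was at 226, 109, and 87.5 CPM in controls and at 91.3 to 478 CPM in the 10 other PNs (log2 fold change, 0.38 ± 0.70, SE; edgeR adjusted p = 0.721). *Snap25* had the highest fold change of the 10. It was at 1139, 609, and 343 CPM in controls and at 1991, 983, 2722, 3784, and 1218 CPM in slow-growing PNs, of which 4 of 5 were above every control. In fast-growing PNs it was at 1318, 1901, 1034, 6.73, 1692, and 593 CPM, with 3 of 6 above every control. The log2 fold change for PNs versus controls was 1.17 ± 0.95 (SE; 95% interval, -0.86 to 3.19; edgeR adjusted p = 0.385), and without fast 4 it was 1.28 ± 0.51 (0.17 to 2.38; edgeR adjusted p = 0.0802).

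**Figure D3:**
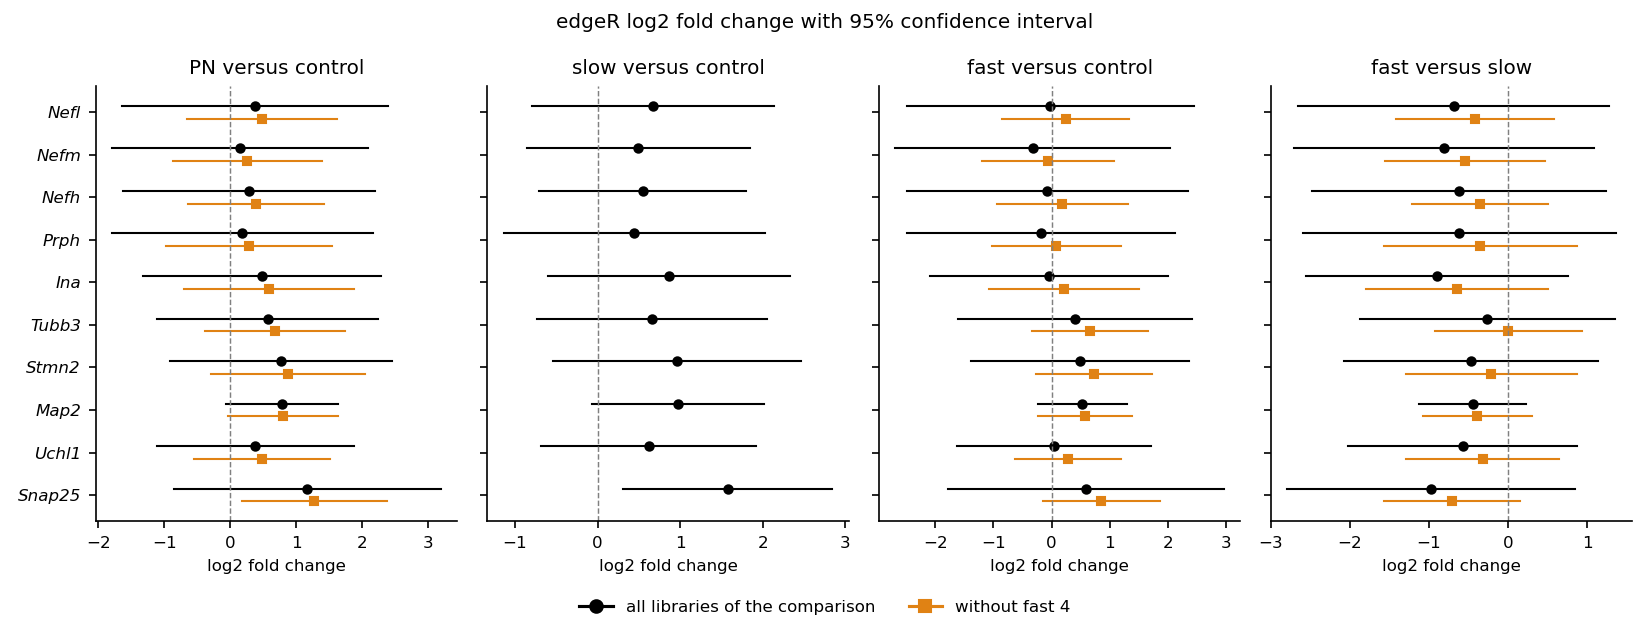
Log2 fold changes of the 10 genes in the 4 comparisons, with 95% confidence intervals from edgeR, for all libraries (circles) and without fast 4 (squares). With all libraries, the interval lies off 0 only for *Snap25* in slow-growing PNs versus controls, and leaving out fast 4 shortens the intervals of the 9 genes other than *Map2*.

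Slow-growing PNs were then compared with controls, a comparison without fast 4. All 10 log2 fold changes were positive in this fit, from 0.44 (*Prph*) to 1.58 (*Snap25*), with a median of 0.67 against 0.04 over all genes. edgeR called 0 of 10, whereas it called 11.3% of the 15714 genes tested. *Snap25* was the only one of the 10 with an unadjusted p under 0.05 (log2 fold change, 1.58 ± 0.56, SE; 95% interval, 0.31 to 2.84; edgeR adjusted p = 0.103). The exact permutation test over 56 splits gave p = 0.0536 for it. DESeq2's Wald test called *Snap25* (adjusted p = 0.0139) and none of the other genes, and limma-voom called 0 of 10. *Map2* (0.97 ± 0.46, SE), *Stmn2* (0.96 ± 0.66), and *Ina* (0.86 ± 0.65) came next, and *Nefl*, *Nefm*, and *Nefh* were at 0.67 ± 0.64, 0.49 ± 0.59, and 0.54 ± 0.55. With 1 library left out these ranged from 0.27 to 1.41, 0.13 to 1.08, and 0.16 to 1.24, lowest without slow 4 (*Nefl*) or control 3 (*Nefm* and *Nefh*) and highest without control 1. The median of the 10 genes was 1.38 without control 1, and 0.28 with 9 of 10 positive without slow 4. A fit with the share of counts on *Rn45s*, the ribosomal RNA precursor, as a covariate was added after the values had been seen. In it 3 of 10 were positive (median, -0.09), and *Snap25* was at 0.91 (edgeR adjusted p = 0.478). Every slow-growing PN had a lower share than every control, so this fit can hardly tell the share from the group. It called 364 of all genes tested, against 1769 without the covariate.

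Fast-growing PNs differed detectably from controls in none of these genes either. edgeR called 0 of 10, against 31.4% of the 16037 genes tested, and 0 of 10 had an unadjusted p under 0.05. DESeq2 and limma-voom also called 0 of 10. The log2 fold change was positive for 5 of 10 genes with all 6 PNs (median, 0.01) and for 9 of 10 without fast 4 (median, 0.26), and without control 1, with fast 4 kept, it was positive for 10 of 10 (median, 0.65), so the direction rests on single libraries of both groups. In limma-voom 1 of 10 was positive and the median was -0.57. *Nefl* went from -0.02 ± 1.10 (SE) to 0.24 ± 0.48, *Nefm* from -0.32 ± 1.05 to -0.06 ± 0.50, *Stmn2* from 0.48 ± 0.84 to 0.74 ± 0.44, and *Snap25* from 0.59 ± 1.06 to 0.86 ± 0.44 (edgeR adjusted p = 0.173 without fast 4). *Map2* hardly moved, from 0.53 ± 0.34 to 0.57 ± 0.36.

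Fast- and slow-growing PNs were compared with each other last. All 10 log2 fold changes for fast versus slow were negative, from -0.97 (*Snap25*) to -0.26 (*Tubb3*), with a median of -0.61. Without slow 4 the median was -0.18 and 2 of 10 were positive, and limma-voom gave a median of -1.40. edgeR called 0 of 10, against 1.27% of the 15465 genes tested, and the unadjusted p was under 0.05 for 0 of 10, as were calls by DESeq2 and limma-voom. The group difference in *Snap25* was -0.97 ± 0.83 (SE; 95% interval, -2.79 to 0.85; edgeR adjusted p = 0.536). Without fast 4, when 0.013% of all genes were called, 0 of 10 were called, the median was -0.37, *Tubb3* was at 0.01 ± 0.42, and *Snap25* at -0.71 ± 0.39 (-1.57 to 0.15). The 2 growth classes overlapped in each of the 10 genes.

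Ratios between genes of the same library compare the genes whatever the total of neuronal RNA, and those of the neurofilament chains were narrow. *Nefh* counts were 0.436 to 0.558 of *Nefl* counts in controls, 0.379 to 0.610 in slow-growing PNs, and 0.438 to 0.595 in fast-growing PNs, fast 4 included, although *Nefl* itself varied 936-fold among the PNs. The mean log2 ratio was -1.03 ± 0.18 (SD, n = 3) in controls and -1.02 ± 0.21 (SD, n = 11) in PNs. *Nefm* to *Nefl* was 0.628, 0.814, and 0.644 in controls and 0.550 to 0.663 in slow-growing PNs, which overlapped. In the fast-growing PNs it was 0.600, 0.556, 0.606, 0.491, and 0.430, all below the controls, and 0.810 in fast 4 (34 and 42 counts). *Prph* to *Nefl* was 0.203 to 0.268 in controls and 0.124 to 0.254 in the 10 other PNs, and *Ina* to *Nefl* was 0.00643 to 0.00835 and 0.00365 to 0.0148.

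*Snap25* to *Nefl* was the ratio that separated the tissues. It was 0.720, 0.950, and 0.870 in controls, 1.51, 1.89, 1.64, 1.27, and 1.76 in slow-growing PNs, and 0.967, 1.22, 1.39, 1.43, and 1.22 in the 5 fast-growing PNs, with 2.12 in fast 4 (89 and 42 counts). Every PN was above every control, by a narrow margin in fast 1. The mean log2 ratio was -0.25 ± 0.21 (SD, n = 3) in controls and 0.55 ± 0.33 (SD, n = 11) in PNs, a difference of 0.80 that ranged from 0.68 to 0.88 when each library was left out. Of 12892 genes with enough counts, 0.535% had a ratio to *Nefl* that was higher in the 10 PNs other than fast 4 than in each control. Among the 9 genes beside *Nefl*, *Snap25* was the only one, and in the 5 neuronal lists 3 of 84 genes were (*Mapk8ip2*, a scaffold of axonal transport, *Sv2c*, a synaptic vesicle protein, and *Scg2*, a secretogranin). With *Uchl1* as the denominator, *Snap25* was at 3.92 to 5.61 in controls and 6.06 to 12.8 in the 10 other PNs, and 0.736 in fast 4. With that denominator 1.59% of all genes, and 18 of the 84 genes of the neuronal lists (21.4%), were higher in those 10 PNs than in each control. This ratio and the 3 further genes were chosen after their values had been seen, and no test was run.

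Within the growth classes, 1 of 9 ratios to *Nefl* in slow-growing PNs (*Snap25*) did not overlap with controls, against 2.8% of all genes. In the fast-growing PNs other than fast 4, 3 of 9 did not overlap (*Snap25* and *Tubb3* higher, *Nefm* lower), against 8.29% of all genes. *Tubb3* to *Nefl* was 0.267 to 0.289 in controls, 0.213 to 0.329 in slow-growing PNs, and 0.297 to 0.494 in those fast-growing PNs. *Stmn2*, *Uchl1*, and *Map2* to *Nefl* overlapped with controls in both classes outside fast 4, where they were 5.38, 2.88, and 11.7.

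**Figure D4:**
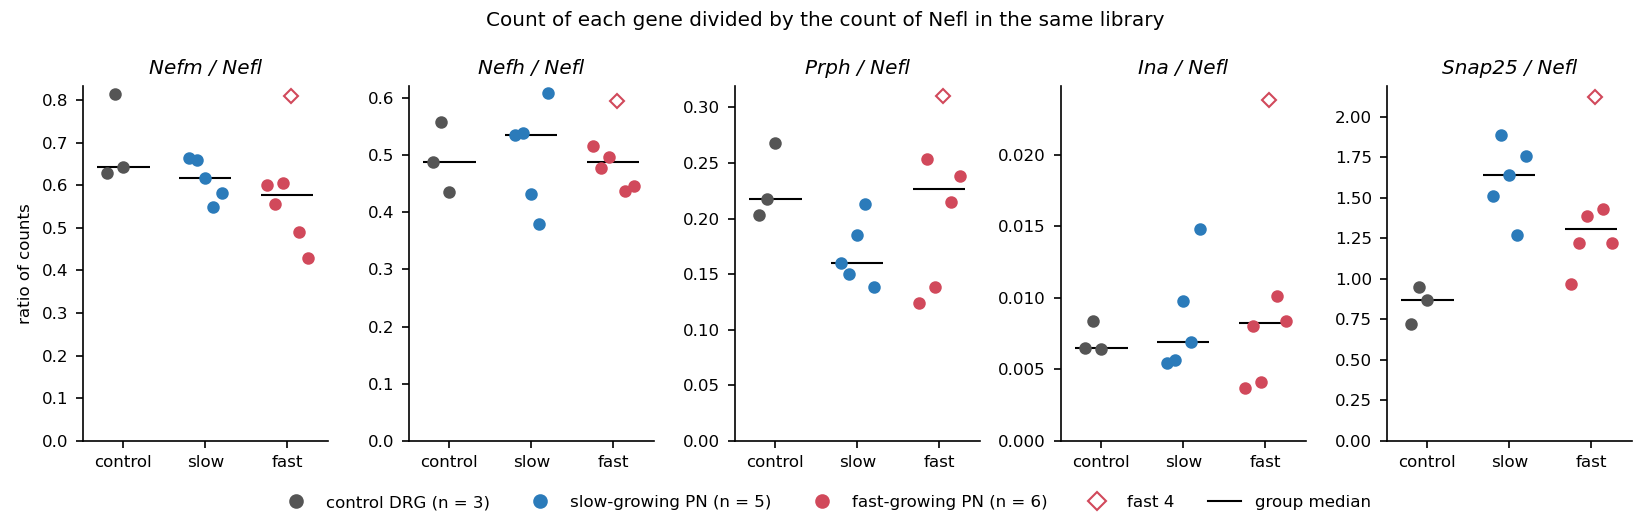
Count of *Nefm*, *Nefh*, *Prph*, *Ina*, and *Snap25* divided by the count of *Nefl* in the same library, on linear axes that start at 0, with group medians as lines and fast 4 as an open diamond. *Snap25* to *Nefl* lies above 0.950, the highest control, in all 11 PNs, and *Nefh* to *Nefl* has like medians in the 3 groups.

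The genes rose and fell together from PN to PN. Over the 10 PNs other than fast 4, the 36 pairs of genes without *Map2* had a Pearson r of log2(CPM + 1) of 0.72 to 0.99 (median, 0.90) and a Spearman rho of 0.78 to 0.98. The 9 pairs with *Map2* had an r of 0.64 to 0.92. These points share a library and its depth, and the values are a description. Over the 11 PNs the pairs with *Map2* had an r of 0.47 to 0.63, since fast 4 kept that gene. Summed over the 10 genes, the level ran from 1661 to 6024 CPM in controls and from 2291 to 13060 CPM in the 10 other PNs, with 86.2 CPM in fast 4.

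Over the 10 PNs other than fast 4, these sums were lower where the share of counts on *Rn45s*, the ribosomal RNA precursor, was higher (Pearson r = -0.77). With fast 4 included, r was -0.03. The 4 PNs of the highest *Rn45s* share (slow 2, slow 5, fast 3, and fast 6, at 14.9% to 18.1%) had sums of 2291 to 3450 CPM, the lowest of the 10 PNs, and these were the lowest in each growth class apart from fast 4. The 6 others, at 3.48% to 13.5%, had sums of 5499 to 13060 CPM, and fast 4 itself was at 7.24%. The 3 controls were at 16.19% to 17.59%, with sums of 1661 to 6024 CPM, the highest in the control of the lowest share. With *Rn45s* left out of the counts before scaling, the same 4 PNs were at 2660 to 4049 CPM and the 6 others at 5991 to 14340 CPM, and edgeR called 0 of the 10 genes in each comparison. With the log2 share of *Rn45s* as a covariate it also called 0 of 10 in each, but 4 of 10 log2 fold changes were positive for PNs versus controls (median, -0.10) and 3 of 10 for slow-growing PNs versus controls (median, -0.09), and the median for fast versus slow was -0.35, so the direction in the first 2 rests on whether this share enters the fit. Every slow-growing PN had a lower share than every control, and so had every fast-growing PN but fast 3. In the first 2 comparisons this covariate can therefore hardly be told from the group. Both fits were added after the values had been seen, and the part of *Rn45s* in the levels was not tested.

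Among 11036 other genes whose log2 mean CPM was 3 or more, those most like the mean z score of the 10 genes over the 11 PNs were *Rbfox3* (the neuronal nuclear antigen NeuN), *Mast1*, *Atp1b1* (a sodium pump subunit), *Ccdc92*, *Lhfpl4*, *BC048546*, *Tmem25*, *Snap91* (a clathrin assembly protein of synapses), *Lrrn1*, and *Ralyl*, with a Pearson r of 0.996 to 0.998. Over the 10 PNs other than fast 4 the first was *Emb* (r = 0.995), and 4 of the first 10 genes were shared, namely *Rbfox3*, *Mast1*, *Atp1b1*, and *Lhfpl4*.

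The other neuronal genes behaved much like the 10. For PNs versus controls, edgeR called 0 of 14 axon cytoskeleton genes, 0 of 11 axonal transport motor genes, 0 of 26 synaptic vesicle and SNARE genes, 1 of 19 other pan-neuronal genes, and 0 of 16 sensory neuron identity genes, against 26.3% of all genes tested. The 1 was *Celf5*, an RNA-binding protein of neurons, at 2.83 ± 1.07 CPM in controls (SD, n = 3) and 5.69 ± 1.89 CPM in PNs (SD, n = 11), with a log2 fold change of 1.003 ± 0.35 (SE; edgeR adjusted p = 0.0472). The median log2 fold changes of the 5 lists were 0.66, 0.72, 0.70, 0.62, and 1.07, in that order, against 0.10 over all genes. The unadjusted p was under 0.05 for 1, 0, 3, 1, and 0 of these genes. The 2 most abundant genes of each list without a call were not called either. In the axon cytoskeleton list these were *Map1b* (microtubule-associated; log2 fold change, 0.53 ± 0.62, SE; edgeR adjusted p = 0.561) and *Dst* (a linker of the cytoskeleton that other cells also express), which came closest to a call at 0.66 ± 0.26 (edgeR adjusted p = 0.0721), with 1360 ± 525 CPM in controls (SD, n = 3) and 2150 ± 494 CPM in PNs (SD, n = 11). The kinesin motors *Kif1a* and *Kif1b* were at 0.75 ± 0.51 and 0.62 ± 0.42, and among vesicle genes *Sncg* (gamma-synuclein) and *Rab3c* (a vesicle GTPase) were at 0.51 ± 0.74 and 1.02 ± 0.91 (SE; edgeR adjusted p = 0.292, 0.293, 0.648, and 0.431). *Calca* (the peptide CGRP) and *Scn10a* (a sodium channel of nociceptors) had log2 fold changes of 0.988 ± 1.001 and 1.59 ± 1.13 (SE; edgeR adjusted p = 0.494 and 0.322).

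In slow-growing PNs 0 genes of these 5 lists were called, against 11.3% of all genes, and in fast-growing PNs 0 were called with all libraries, against 31.4%. The unadjusted p was under 0.05 for 0, 4, 4, 1, and 3 genes in the former and for 1, 0, 1, 1, and 0 genes in the latter. Without fast 4, when 32.1% of all genes were called for fast-growing PNs versus controls, these lists had 3 calls, *Vamp2* (a vesicle SNARE; log2 fold change, 0.82 ± 0.26, SE) and *Dnm1* (the dynamin of endocytosis; 0.93 ± 0.29) higher and *Tuba4a* (an alpha-tubulin; -1.15 ± 0.34) lower, with edgeR adjusted p of 0.0419, 0.0386, and 0.0304. These 3 were named after their values had been seen.

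Other cell types differed between the tissues, against 26.3% of all genes called for PNs, 11.3% for slow-growing PNs, and 31.4% for fast-growing PNs versus controls. Of 10 SC markers 5 were higher in PNs than in controls (*Cdh19*, *Scn7a*, and *Erbb3* with log2 fold changes of 2.70 ± 0.47, 2.32 ± 0.39, and 2.15 ± 0.45, SE), and of 6 satellite glia markers 2 were higher (*Kcnj10*, 2.84 ± 0.68, and *Entpd2*, 1.45 ± 0.35) and 1 lower (*Gja1*, -1.21 ± 0.28). Of 15 skeletal muscle markers 8 were lower and of 12 fat markers 4 were lower in PNs, and in fast-growing PNs 13 and 12 were. Of the other lists in fast-growing PNs, 6 of 6 fibroblast markers and 5 of 10 SC markers were higher. The 6 satellite glia markers went both ways there, with 2 higher and 3 lower. In slow-growing PNs, 0 of the 15 muscle markers and 1 of the 12 fat markers were called, and 3 of 10 SC markers were higher. Of 6 fibroblast, 5 macrophage, 2 autonomic and motor neuron, and 3 central glia markers tested, 0 were called in PNs. The 6 fibroblast markers had 0 calls in slow-growing PNs as well. Among controls, the one with the lowest summed level of the 10 genes (control 3) had the highest muscle sum, 16300 CPM, and the one with the highest (control 1) the lowest, 4060 CPM. With muscle and fat scores as covariates, edgeR called 475 of the 16283 genes tested for PNs versus controls and 0 genes in the other 3 comparisons, so that fit says nothing about the 10 genes in those 3. For PNs versus controls it called 0 of the 10, with 10 positive log2 fold changes of a median of 0.88, among them *Snap25* at 2.10 (edgeR adjusted p = 0.445) and *Ina* at 1.57 (edgeR adjusted p = 0.538). The part of these tissues in the levels was not tested.

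**Figure D5:**
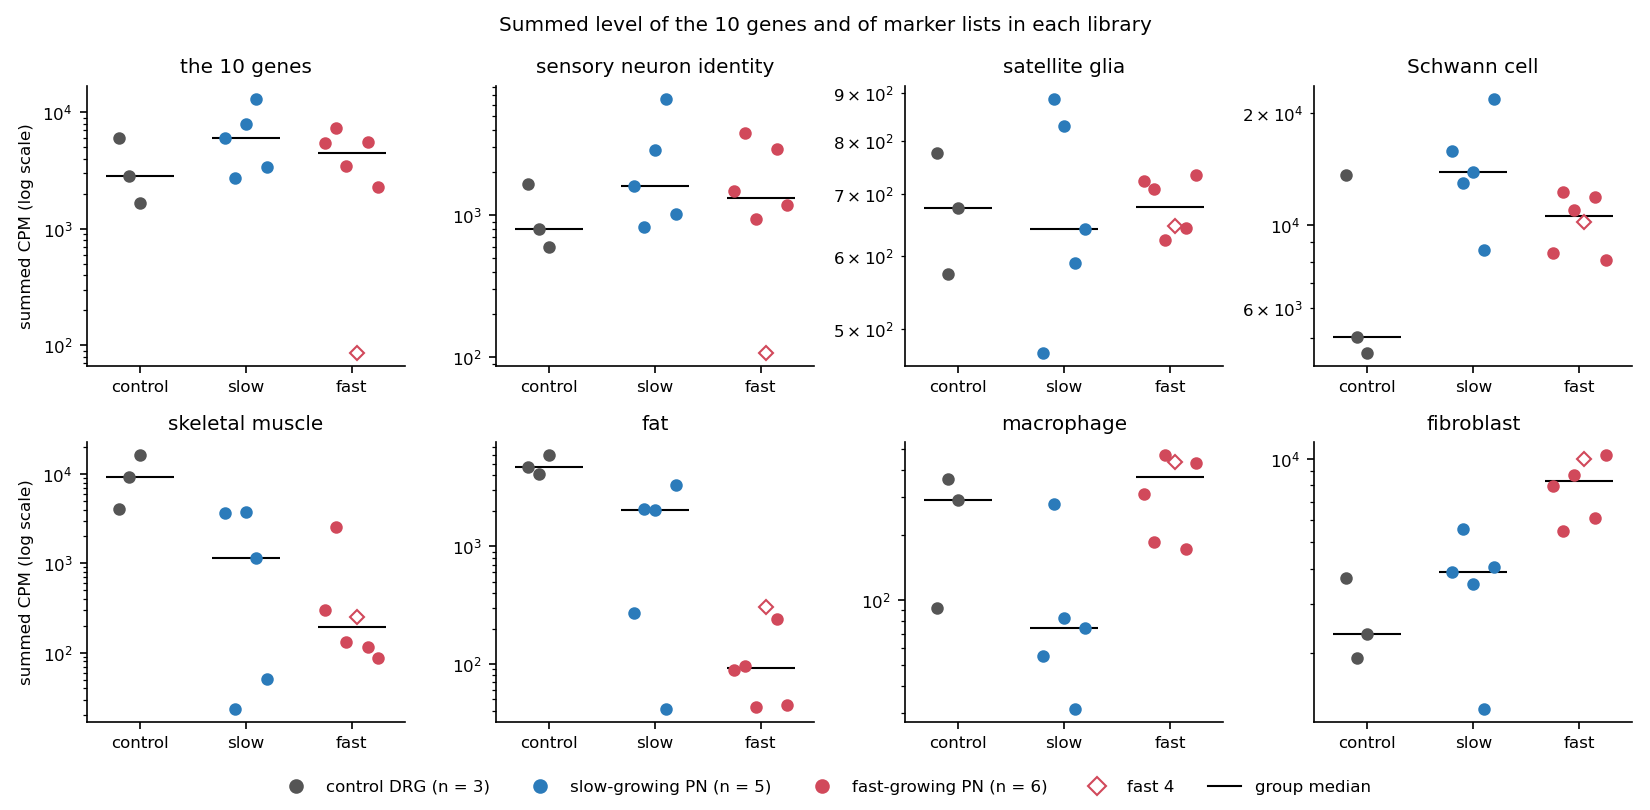
Summed CPM of the 10 genes and of 7 marker lists in each library, on log axes, with group medians as lines and fast 4 as an open diamond. In fast 4 the sums of the 10 genes (86.2 CPM) and of sensory neuron identity genes (107 CPM) are the lowest of all libraries, whereas those of satellite glia (646 CPM) and SC genes (10200 CPM) lie inside the range of the other fast-growing PNs.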

How the data were processed

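Total RNA from whole tissue was amplified (Ovation RNA-Seq System v2). Per the labels, the authors used CASAVA 1.4, FastQC 0.11.0, TopHat2 2.0.9, featureCounts 1.5.2, and edgeR 3.16.5, with the mm10 genome. The annotation and strand setting are not given in the sources used here. The authors deposited whole-number counts for 24062 genes in 14 libraries, without normalization, and these counts were used. A log2 table that they also deposited was not used, and the single-cell libraries were not analysed here.

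Counts were tested in R 4.3.3 with edgeR 4.0.16 (filterByExpr, TMM, quasi-likelihood, Benjamini-Hochberg over all genes tested), fitted on the compared libraries alone and without covariates. CPM are TMM scaled. Single genes were also compared by an exact two-sided permutation test of log2(CPM + 1). Ratios are of counts, over genes with a mean of at least 50 counts. Intervals and floors cover counting error only. DESeq2 1.42.0, limma 3.58.1, other scalings, no filter, a fit over all 3 groups, covariates, and leaving out each library were the alternatives.

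The 10 genes and all lists were chosen with earlier results of these data known. Named genes were the 10, *Nf1*, per list the 3 called genes of largest log2 fold change (or, with none called, the 2 most abundant), and the 10 genes with the highest r. Exceptions are stated where they occur. The lists were axon cytoskeleton, axonal transport motors, synaptic vesicle and SNARE, other pan-neuronal, sensory neuron identity, autonomic and motor neuron, satellite glia, Schwann cell, central nervous system glia, skeletal muscle, fat, macrophage, and fibroblast. Transcript lengths and positions came from GENCODE vM21, with 22750 genes found by their symbol and 950 through a former one.

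On simulated counts in which 200 genes had been shifted by 2 on the log2 scale, edgeR recovered 67%, 57.5%, 72%, and 82% of these for PNs, slow-growing PNs, and fast-growing PNs versus controls and for fast versus slow (16067, 15485, 15841, and 15277 genes). False calls were 3.6%, 7.26%, 7.1%, and 6.82%. Plots used matplotlib 3.10.9 (Python 3.11.15).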

Additional observations from a re-analysis of the deposited data

Results flagged for a closer look

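Within the slow- and fast-growing PNs, the lowest and the highest library of each of the 10 genes, of *Nf1*, and of the 9 ratios to *Nefl* were compared with the rest by Dixon's ratio, the gap to the nearest library divided by the range. Of 40 groups tested, 14 flags were raised, and chance alone flags about 1 in 20 groups. Fast 4 was far below the other fast-growing PNs in 8 genes: the ratio was 0.804 for *Nefl*, 0.742 for *Nefm*, 0.780 for *Nefh*, 0.748 for *Prph*, 0.775 for *Tubb3*, 0.720 for *Stmn2*, 0.675 for *Uchl1*, and 0.789 for *Snap25*, against a limit of 0.625 for 6 samples. Ratios to *Nefl* were far above the rest in fast 4 for *Tubb3* (0.753), *Stmn2* (0.794), *Map2* (0.895), and *Uchl1* (0.868). These flags share the library and, in the ratios, the 42 counts of *Nefl*.

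Among the slow-growing PNs, where the limit is 0.710 for 5 samples, the ratio of *Map2* to *Nefl* was highest in slow 2 (0.0824, Dixon's ratio 0.723), and that of *Uchl1* to *Nefl* was lowest in slow 1 (0.118, Dixon's ratio 0.785).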

How the results depend on the processing

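No paired analysis was possible because the labels give no replicate numbers that groups share. Each comparison kept 0 of the 10 genes called under every alternative and with any library left out, except that DESeq2's Wald test called 1 gene, *Snap25*, in slow-growing PNs versus controls. With the muscle and fat covariates no gene at all was called in 3 of the comparisons, which leaves that alternative without weight there. The *Rn45s* share was lower in every slow-growing PN than in every control, so as a covariate it can hardly be told from that group. For PNs versus controls the median log2 fold change of the 10 genes was 1.12 without control 1, 0.31 without control 2, 0.13 without control 3, and 0.19 without slow 4, and for slow-growing PNs versus controls 1.38 without control 1, 0.35 without control 3, and 0.28 without slow 4. Over 860 log2 fold changes of single genes under alternatives, 70 changed sign, and in each of these the gene was called neither way. The cause of these changes was not tested.

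For PNs versus controls, limma-voom gave -0.20 (*Nefl*), -0.42 (*Nefm*), -0.19 (*Nefh*), -0.50 (*Prph*), and -0.12 (*Ina*), and the permutation test, which compares mean log2(CPM + 1), -0.18 (*Nefl*), -0.40 (*Nefm*), -0.16 (*Nefh*), and -0.42 (*Prph*). For slow-growing PNs, *Prph* was -0.14 with the covariates. For fast-growing PNs versus controls, limma-voom gave -0.16 (*Tubb3*), -0.047 (*Stmn2*), -0.40 (*Uchl1*), and -0.35 (*Snap25*), and the permutation test -0.078 (*Tubb3*), -0.32 (*Uchl1*), and -0.25 (*Snap25*). In the same comparison the fit over all 3 groups gave 0.027 (*Nefl*) and 0.008 (*Ina*), removal of the length and GC trend 0.071 (*Prph*) and 0.003 (*Ina*), and the covariates 0.16 (*Nefl*), 0.99 (*Prph*), and 1.96 (*Ina*).

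With the *Rn45s* share as a covariate, an alternative added after seeing the data, PNs versus controls gave -0.18 (*Nefl*), -0.41 (*Nefm*), -0.15 (*Nefh*), -0.61 (*Prph*), -0.095 (*Ina*), and -0.11 (*Uchl1*), slow-growing PNs -0.27 (*Nefl*), -0.42 (*Nefm*), -0.18 (*Nefh*), -0.77 (*Prph*), -0.077 (*Tubb3*), -0.049 (*Stmn2*), and -0.10 (*Uchl1*), and fast-growing PNs 0.048 (*Nefl*), 0.062 (*Nefh*), and -0.029 (*Uchl1*).

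With each library left out, the log2 fold change ranged from -0.21 to 0.76 (*Nefm*), -0.098 to 0.998 (*Nefh*), and -0.13 to 0.81 (*Prph*) for PNs versus controls, and from -0.13 to 1.05 (*Prph*) for slow-growing PNs versus controls. For fast-growing PNs versus controls it ranged from -0.32 to 0.70 (*Nefl*), -0.64 to 0.25 (*Nefm*), -0.41 to 0.61 (*Nefh*), -0.59 to 0.41 (*Prph*), -0.37 to 0.54 (*Ina*), and -0.26 to 0.53 (*Uchl1*). For fast versus slow it ranged from -0.53 to 0.22 (*Tubb3*) and -0.74 to 0.13 (*Stmn2*). Of the 10 genes most like the 10 studied, 8 were shared with a pseudocount of 0.5, 7 over all 14 libraries, and 4 without fast 4, which was added after seeing the data. With each library left out, the mean log2 ratio to *Nefl* of PNs minus that of controls ranged from -0.30 to -0.11 (*Nefm*), -0.083 to 0.095 (*Nefh*), -0.38 to -0.18 (*Prph*), 0.006 to 0.29 (*Ina*), and 0.68 to 0.88 (*Snap25*).

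The comparisons rest on 3 controls with a 4.02-fold range in *Nefl*. The 95% interval of *Nefl* for PNs versus controls spans -1.64 to 2.40, and in fast 4 *Ina*, *Prph*, and *Nefh* rest on 1, 13, and 25 counts.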

Other observations

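Glial genes did not all follow the neurons in fast 4. *Fabp7*, a fatty acid-binding protein of satellite glia and immature SCs, was at 11.3 CPM there (149 counts), below the 46.5 to 244 CPM of the other 10 PNs and the 51.0 to 177 CPM of the controls. *Kcnj10*, the inwardly rectifying potassium channel of satellite glia, was at 394 CPM in fast 4, above the 53.5 to 309 CPM of the other PNs and the 17.7 to 38.7 CPM of the controls. The SC genes *Sox10* (148 CPM) and *S100b* (271 CPM) lay inside the range of the other PNs. *Ngfr*, the p75 neurotrophin receptor, which sensory neurons also express, was on the same SC list and was at 27.6 CPM in fast 4, 14.4% of the median of the other PNs and 53.4% of the lowest of the other libraries. These genes were picked after the levels in fast 4 had been seen, and no test was run on them.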
